A study of Homo sapiens with 9 samples.

Results

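The box C/D small nucleolar RNAs (snoRNAs) described here are the 141 genes whose symbol is SNORD followed by a number, leaving out the clustered families SNORD113, SNORD114, SNORD115 and SNORD116. They are 141 of the 21417 gene symbols in the expression table. With a mean of at least 0.5 RPKM over the libraries, 140 of them were tested. SNORD56B, at 0 to 2.08 RPKM, was below that minimum. The choice by name keeps 5 genes of the imprinted region of chromosome 15 (SNORD64, SNORD107, SNORD108, SNORD109A and SNORD109B), so counts are given with and without them. RPKM scales reads to transcript length and to the reads of the library, and levels of different members are set side by side on this scale only.

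Box C/D snoRNAs are short RNAs with a C box near the 5′ end and a D box near the 3′ end. Fibrillarin, NOP56, NOP58 and SNU13 assemble on these boxes, and the stretch upstream of the D box or of its internal copy pairs with a target RNA, whose ribose is then methylated. Most guide methylation of ribosomal RNA (rRNA), a few guide that of the spliceosomal U6 RNA, and others have no settled target. In human cells nearly all are processed from introns of other transcripts, often ribosomal protein genes or non-coding hosts such as GAS5 and SNHG1.

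Total RNA of H9, an established line of human embryonic stem cells, was measured in 9 libraries, 3 per group. Undifferentiated cells (hESC) were taken at day 0, on Matrigel and in mTeSR1 medium. Neuroectoderm was taken at day 5 of treatment with 200 nM of NOGGIN, which binds BMP ligands, together with 10 µM of SB431542, which blocks activin and Nodal receptors. Mesendoderm was taken at day 5 of treatment with 5 ng/ml of BMP4, also in mTeSR1. All groups come from 1 line, and the labels do not say whether the libraries of a group were separate cultures, so p-values measure a spread that may be technical. Libraries are named by group and replicate number, which gives no order.

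All 4 tested neuroectoderm markers rose in neuroectoderm (SIX3 averaged under 0.5 RPKM in every group), and all 5 mesendoderm markers rose in mesendoderm. The 5 amnion markers also rose in mesendoderm, to a summed level of 198.0 to 375 RPKM against 4.25 to 5.14 in hESC and 1.88 to 3.11 in neuroectoderm, and their part in the snoRNA results was not tested. The libraries correspond to 36.6 to 69.6 M reads, estimated from the steps of 1 read in the deposited values. The members took 1.67% to 5.02% of these reads, the highest share being in neuroectoderm 1 and the lowest in neuroectoderm 2. The median member had 1632 to 4533 reads in a library, and 4 to 6 members had fewer than 30.

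The sequences below belong to members whose levels carry the comparisons. They are from GENCODE 29 on GRCh38, whereas the deposited values were made on hg19. Capitals mark a C box (TGATGA within the first 20 bases) and a D box (CTGA within the last 12 bases), searched on the given strand. The first set holds 3 members that rose in both lineages, and SNORD17, which rose in neuroectoderm. SNORD67 lies at chr11:46762389-46762499 (minus strand) in an intron of CKAP5, and SNORD97 at chr11:10801467-10801608 (minus strand) in an intron of EIF4G2. SNORD89 lies at chr2:101272936-101273049 (minus strand) in an intron of RNF149, and SNORD17 at chr20:17962710-17962946 (minus strand) in an intron of SNX5.
SNORD67: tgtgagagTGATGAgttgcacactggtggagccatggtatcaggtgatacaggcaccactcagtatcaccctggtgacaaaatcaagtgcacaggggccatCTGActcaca
SNORD97: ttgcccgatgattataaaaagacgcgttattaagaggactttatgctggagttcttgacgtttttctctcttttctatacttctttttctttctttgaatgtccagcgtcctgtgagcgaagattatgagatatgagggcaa
SNORD89: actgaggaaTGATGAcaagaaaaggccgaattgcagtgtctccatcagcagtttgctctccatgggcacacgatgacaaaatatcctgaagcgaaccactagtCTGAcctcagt
SNORD17: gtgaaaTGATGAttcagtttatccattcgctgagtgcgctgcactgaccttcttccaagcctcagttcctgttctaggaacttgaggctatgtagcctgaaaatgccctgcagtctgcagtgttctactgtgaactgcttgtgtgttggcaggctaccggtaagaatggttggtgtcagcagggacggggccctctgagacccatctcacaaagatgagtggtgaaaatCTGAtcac

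The second set holds members that fell in at least 1 lineage. SNORD86 lies at chr20:2656097-2656182 (plus strand) in an intron of NOP56, and SNORD69 at chr3:52692736-52692812 (plus strand) in an intron of GNL3. SNORD27 lies at chr11:62855012-62855083 (minus strand) in an intron of SNHG1, and SNORD51 at chr2:206161878-206161957 (plus strand) in an intron of EEF1B2. SNORD108, at chr15:24986925-24986995 (plus strand), overlaps an exon of PWAR5, and SNORD109A, at chr15:25041974-25042040 (plus strand), overlaps an exon of SNHG14, so their reads may not be separable from those of the longer transcripts.
SNORD86: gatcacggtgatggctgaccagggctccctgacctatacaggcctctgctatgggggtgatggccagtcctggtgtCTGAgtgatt
SNORD69: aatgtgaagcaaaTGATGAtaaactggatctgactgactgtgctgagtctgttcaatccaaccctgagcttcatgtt
SNORD27: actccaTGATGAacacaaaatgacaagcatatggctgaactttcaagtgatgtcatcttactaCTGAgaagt
SNORD51: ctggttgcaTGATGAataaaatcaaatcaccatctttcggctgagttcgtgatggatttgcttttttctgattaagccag
SNORD108: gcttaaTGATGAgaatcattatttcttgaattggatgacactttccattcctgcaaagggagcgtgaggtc
SNORD109A: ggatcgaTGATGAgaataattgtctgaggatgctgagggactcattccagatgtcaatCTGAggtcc

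The third set was chosen to show members that share a stretch of sequence while their values differ. Other pairs with a shared stretch had close log2 differences of mesendoderm from hESC. These were −1.06 and −1.07 for SNORD58A and SNORD58B (22 bases), and 0.53 and 0.55 for SNORD83A and SNORD83B (21 bases). SNORD32A, at chr19:49489965-49490048 (plus strand) in an intron of RPL13A, shares the 13 bases tcaccatctttcg with SNORD51. SNORD111 and SNORD111B, at chr16:70538005-70538098 and chr16:70529509-70529588 (plus strand) in introns of SF3B3, share the 18 bases ttcatgtctcttctctga.
SNORD32A: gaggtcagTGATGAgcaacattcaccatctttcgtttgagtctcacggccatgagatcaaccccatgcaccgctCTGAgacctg
SNORD111: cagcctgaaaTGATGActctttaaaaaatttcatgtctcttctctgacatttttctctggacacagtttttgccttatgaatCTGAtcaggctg
SNORD111B: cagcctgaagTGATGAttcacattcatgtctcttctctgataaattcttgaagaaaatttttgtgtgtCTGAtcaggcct

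Of the 141 members, 125 had a GENCODE sequence under their symbol. TGATGA was found in the C box window in 79 of these (63.2%), CTGA in the D box window in 100 (80%), and both in 68 (54.4%). With the last base left free (TGATGN), 111 (88.8%) matched. In 149 box H/ACA snoRNAs, the other large class of snoRNAs, the same searches found TGATGA in 1, CTGA in 4 and TGATGN in 2. All 123 members placed in the annotation lay inside a longer gene on the same strand, 111 of them without overlapping its exons. SNORD62A and SNORD62B have the same sequence and the same values in every library, so they are 1 measurement under 2 symbols. SNORD109A and SNORD109B also share their sequence, but their deposited values differ.

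As a class, box C/D snoRNAs were at a lower summed level in every mesendoderm library than in any hESC library, while neuroectoderm libraries spanned a wide range. Summed over the 141 members, hESC 1 to 3 held 284224, 422015 and 324877 RPKM. Neuroectoderm 1 to 3 held 604452, 185184 and 310458 RPKM, and mesendoderm 1 to 3 held 222734, 209630 and 223406 RPKM. The ratio of group means was 0.636 for mesendoderm against hESC and 1.07 for neuroectoderm against hESC. Without neuroectoderm 1 the latter ratio was 0.721, and without neuroectoderm 2 it was 1.33. In bulk RNA, fewer cells of a type and less RNA per cell cannot be told apart.

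Box H/ACA snoRNAs, which guide pseudouridylation, were summed in the same way. Together with the scaRNAs of Cajal bodies, 126 of them summed to 89020 ± 4035 RPKM in hESC, 134253 ± 5301 in neuroectoderm and 123430 ± 5853 in mesendoderm (SD, n = 3 each). Within a library, the box C/D sum was 3.11, 4.62 and 3.85 times the H/ACA sum in hESC, 4.31, 1.39 and 2.39 times in neuroectoderm and 1.72, 1.78 and 1.81 times in mesendoderm. The ratio was thus lower in every mesendoderm library than in any hESC library.

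**Figure D1:**
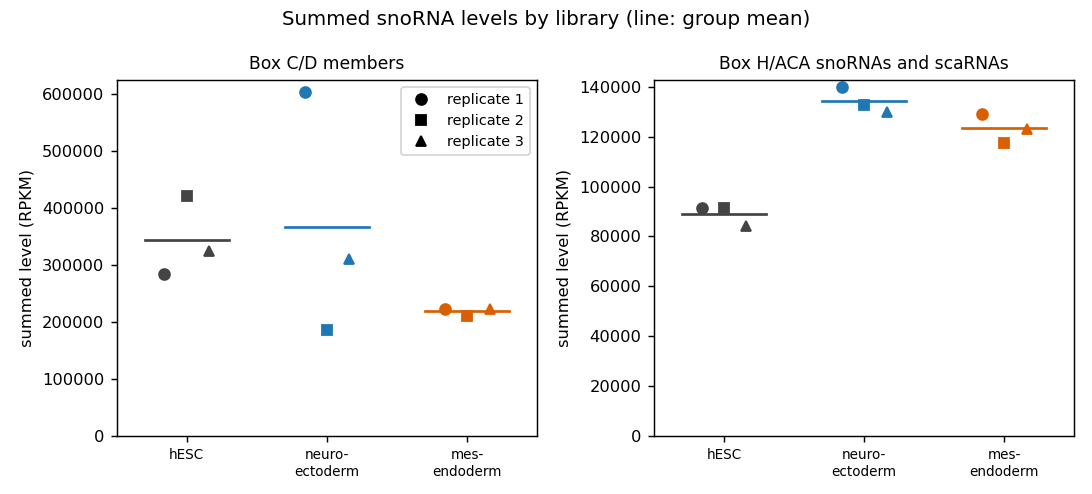
Summed level (y axis, RPKM, from 0) of the 141 box C/D members and of the 126 box H/ACA snoRNAs and scaRNAs in each library, by group, with the marker giving the replicate and the line the group mean. Box C/D sums in neuroectoderm run from 185184 to 604452 RPKM, while the 3 mesendoderm libraries lie together below all hESC libraries.

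Replicates of hESC and neuroectoderm differed widely for these snoRNAs. The median coefficient of variation of the 140 tested members was 31.7% in hESC, 59.5% in neuroectoderm and 13.3% in mesendoderm, beside 13.3%, 19.5% and 11.5% over the tested genes with a value in the group. For the 123 tested H/ACA snoRNAs and scaRNAs it was 24.9%, 30.2% and 16.6%. Neuroectoderm 1 was the highest neuroectoderm library for 122 of 140 members, and neuroectoderm 2 the lowest for 125. In hESC, replicate 2 was the highest for 105 members. The value in neuroectoderm 1 divided by the mean of neuroectoderm 2 and 3 had a median of 2.33 over the members, exceeded 2 for 83 of them and was under 1 for 10.

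Levels spanned a wide range among members. The 12 with the highest means held 42.6% to 53.4% of the summed level of a library. SNORD31, a guide for 28S rRNA, averaged 23242 RPKM over the 9 libraries, SNORD83B, without a settled target, averaged 19122 RPKM, and the 18S rRNA guides SNORD100 and SNORD27 averaged 16788 and 16502 RPKM. SNORD83B read 19115, 9194 and 22631 RPKM in hESC, 15513, 14991 and 20499 in neuroectoderm and 27901, 19480.0 and 22777 in mesendoderm. Its groups overlapped, and the difference of mesendoderm from hESC was 0.55 ± 0.52 (log2 difference ± SE on the scale of log2(RPKM + 1), adjusted p = 0.462 by limma). SNORD100 read 21145, 21557 and 24126 RPKM in hESC, 35369.7, 7941 and 15445 in neuroectoderm and 8756, 7401 and 9348 in mesendoderm. All its mesendoderm values lay below all hESC values, but the difference of −1.39 ± 0.58 did not pass (adjusted p = 0.0977). The lowest tested members were SNORD109B (mean 3.10 RPKM), the pair SNORD62A and SNORD62B (5.62) and SNORD19 (6.91).

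Against hESC, 6 members rose and 4 fell in neuroectoderm of 140, at an adjusted p under 0.05 (limma, Benjamini-Hochberg over 14473 genes). Among all tested genes 44.2% were called, 21.9% higher and 22.3% lower, so a smaller share of the members was called. Outside the imprinted region 6 rose and 2 fell of 135. The 6 that rose were SNORD17, SNORD67, SNORD124, SNORD97, SNORD10 and SNORD89, and the 4 that fell were SNORD108, SNORD93, SNORD109A and SNORD86. The members' median difference was −0.12, beside −0.02 over all tested genes. Neuroectoderm lay wholly above hESC for 9 members and wholly below for 6, beside 25.4% and 26.5% of all tested genes.

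Mesendoderm, set against the same hESC libraries, showed 6 members that rose and 10 that fell. Of all tested genes 35.1% were called, 17% higher and 18.1% lower. Outside the imprinted region the counts were 6 and 9 of 135. The 6 that rose were SNORD89, SNORD67, SNORD97, SNORD111, SNORD62A and SNORD62B. The 10 that fell were SNORD78, SNORD69, SNORD51, SNORD27, SNORD86, SNORD23, SNORD104, SNORD85, SNORD108 and SNORD96B, the last named only to complete the count. The median difference was −0.49, beside −0.02 over all tested genes. In 55 members mesendoderm lay wholly below hESC and in 13 wholly above, beside 28.7% and 26% of all tested genes. Among the 123 tested H/ACA snoRNAs and scaRNAs, 24 rose and 7 fell in neuroectoderm and 31 rose and 7 fell in mesendoderm, with median differences of 0.17 and 0.31. Among the 376 tested microRNAs, 14 rose and 45 fell in neuroectoderm and 17 rose and 108 fell in mesendoderm, with median differences of −0.32 and −0.81. Mesendoderm lay wholly below hESC for 191 of the microRNAs.

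SNORD67, a guide for U6, rose in both lineages. It read 1333, 1169 and 1668 RPKM in hESC, 3435, 3001 and 3268 in neuroectoderm and 4158, 3409 and 3946 in mesendoderm. Every differentiated library lay above every hESC library. SNORD67 rose by 1.23 ± 0.28 in neuroectoderm (adjusted p = 0.00614) and by 1.48 ± 0.28 in mesendoderm (adjusted p = 0.00314), and both calls held in all 21 alternative settings. Its host CKAP5, a microtubule polymerase, was not called in either lineage.

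The other 4 members listed as U6 guides were not called against hESC. SNORD9 read 262, 343 and 337 RPKM in hESC, 631, 501 and 357 in neuroectoderm and 504, 468 and 541 in mesendoderm. Both lineages lay wholly above hESC, but the differences of 0.63 ± 0.24 and 0.69 ± 0.24 did not pass (adjusted p = 0.0631 and 0.0549). SNORD8, which shares 22 bases with SNORD9, ran from 2033 to 5099 RPKM and differed by 0.65 ± 0.33 in neuroectoderm and 0.45 ± 0.33 in mesendoderm. LARP7, a protein that brings U6 to its box C/D guides, rose by 1.04 ± 0.11 in neuroectoderm (adjusted p = 8.51e-05) and by 0.67 ± 0.11 in mesendoderm (adjusted p = 0.00169).

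Of the 12 members without a settled rRNA or snRNA target, 2 rose in each lineage, while 3 fell in neuroectoderm and 2 in mesendoderm. Of all tested genes 21.9% rose and 22.3% fell in neuroectoderm, and 17% rose and 18.1% fell in mesendoderm. SNORD89, an orphan snoRNA, read 527, 511 and 661 RPKM in hESC, 846, 1079 and 1009.7 in neuroectoderm and 1715, 1538 and 1803 in mesendoderm. The 3 groups were fully separated, with mesendoderm highest. SNORD89 rose by 1.58 ± 0.22 in mesendoderm (adjusted p = 0.000638) and by 0.79 ± 0.22 in neuroectoderm (adjusted p = 0.0187). The neuroectoderm call was lost without hESC 1, hESC 2 or neuroectoderm 3 (adjusted p = 0.0562 to 0.0636). It was also lost with libraries rescaled to equal sums over small RNA genes (adjusted p = 0.301) or over the other genes (adjusted p = 0.0898). The same held with the replicate number as a block (adjusted p = 0.0509).

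SNORD97, which guides methylation of a methionine tRNA, read 1696, 1095 and 1498 RPKM in hESC, 2776, 3014 and 2533 in neuroectoderm and 3526, 3683 and 3559.7 in mesendoderm. Its groups were likewise separated, with mesendoderm highest. SNORD97 rose by 1.35 ± 0.28 in mesendoderm (adjusted p = 0.00527) and by 0.98 ± 0.28 in neuroectoderm (adjusted p = 0.0194). The neuroectoderm call was lost without hESC 2 or hESC 3 (adjusted p = 0.0544 to 0.0615). It was also lost with equal sums over small RNA genes (adjusted p = 0.156) or over the other genes (adjusted p = 0.06). Dropping the filter on low values (adjusted p = 0.0691) or using the replicate number as a block (adjusted p = 0.061) likewise ended this call for SNORD97. Its host EIF4G2, a translation factor, was not called in either lineage.

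SNORD17, SNORD10 and SNORD124, which stand in none of the target lists used here, completed the rises in neuroectoderm. SNORD17 read 689, 2410.1 and 664 RPKM in hESC, 10578, 3404 and 2846 in neuroectoderm and 3089, 2823 and 3241 in mesendoderm. Neuroectoderm 1 stood far above all other libraries and hESC 2 above the other hESC libraries, yet neither lineage overlapped with hESC. SNORD17 rose by 2.18 ± 0.62 in neuroectoderm (adjusted p = 0.0199), a call that was lost without hESC 1 or hESC 3 (adjusted p = 0.0747 to 0.0786) and held without neuroectoderm 1. Its difference in mesendoderm was 1.56 ± 0.62 (adjusted p = 0.0847).

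SNORD124 read 45.5, 78.1 and 44.2 RPKM in hESC, 112, 109.6 and 136 in neuroectoderm and 91.7, 70.8 and 82.3 in mesendoderm. Neuroectoderm lay wholly above hESC and mesendoderm overlapped with it, and SNORD124 rose by 1.12 ± 0.23 in neuroectoderm (adjusted p = 0.00388), a call that was lost when libraries were rescaled to equal sums over small RNA genes (adjusted p = 0.0899). SNORD10 read 1749, 1817 and 1454 RPKM in hESC, 3031, 3085 and 2852 in neuroectoderm and 3208, 2397 and 2884 in mesendoderm. Both lineages lay wholly above hESC, and SNORD10 rose by 0.84 ± 0.27 in neuroectoderm (adjusted p = 0.0297), beside 0.75 ± 0.27 in mesendoderm (adjusted p = 0.0553). The neuroectoderm call for SNORD10 was lost without hESC 1, hESC 3, neuroectoderm 2, neuroectoderm 3 or mesendoderm 3 (adjusted p = 0.0504 to 0.117). Equal sums over small RNA genes (adjusted p = 0.184) or over the other genes (adjusted p = 0.132) also ended it.

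**Figure D2:**
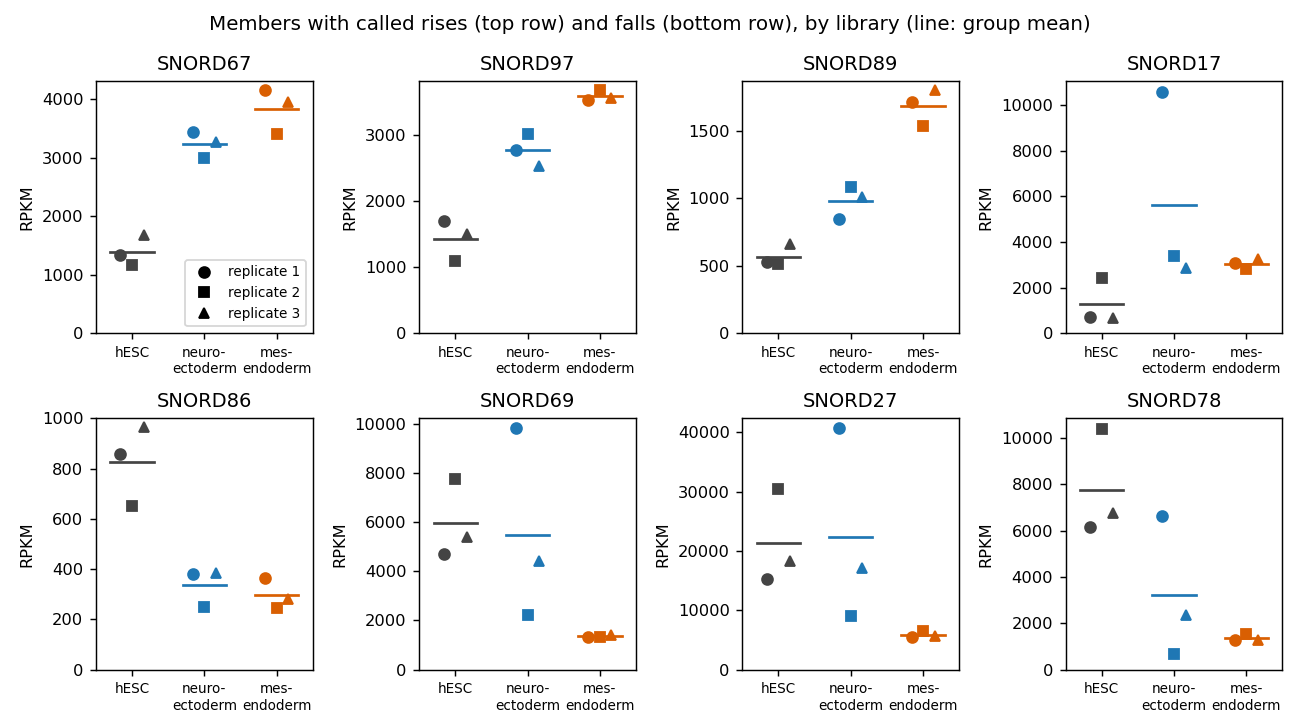
Level (y axis, RPKM, from 0) of 4 members with called rises (top) and 4 with called falls (bottom) in each library, by group, with the marker giving the replicate and the line the group mean. SNORD67, SNORD97 and SNORD89 separate hESC from all differentiated libraries, whereas SNORD69, SNORD27 and SNORD78 show a wide spread in neuroectoderm, with neuroectoderm 1 highest.

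SNORD86 fell in both lineages. It lies in NOP56 and is reported to act in cis on the splicing of that host. SNORD86 read 858, 651 and 967 RPKM in hESC, 381, 249 and 383 in neuroectoderm and 363, 246 and 281 in mesendoderm. All differentiated libraries lay below all hESC libraries. It fell by 1.30 ± 0.26 in neuroectoderm (adjusted p = 0.00367) and by 1.47 ± 0.26 in mesendoderm (adjusted p = 0.00243). The mesendoderm call was lost with equal sums over small RNA genes (adjusted p = 0.0743). NOP56, a core protein of the box C/D particle, fell by 1.15 ± 0.18 in neuroectoderm (adjusted p = 0.000851) and by 0.80 ± 0.18 in mesendoderm (adjusted p = 0.00812). The other members in NOP56 were not called, with neuroectoderm differences of 0.75 ± 0.56 for SNORD56, 0.03 ± 0.37 for SNORD57 and −0.23 ± 0.31 for SNORD110.

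Among the 52 listed guides of 28S rRNA, 1 rose and 4 fell in mesendoderm, beside 17% and 18.1% of all tested genes. Of these guides 25 lay wholly below hESC, beside 28.7% of all tested genes, and their median difference was −0.66. SNORD69 read 4688, 7730.4 and 5410.4 RPKM in hESC, 9812, 2223 and 4397 in neuroectoderm and 1311, 1339 and 1407 in mesendoderm. Its mesendoderm values lay close together below all others, and neuroectoderm overlapped with hESC. SNORD69 fell by 2.10 ± 0.51 in mesendoderm (adjusted p = 0.0122), a call that held in all 21 alternative settings. Its host GNL3, a nucleolar protein, fell by 0.38 ± 0.12 in mesendoderm (adjusted p = 0.0403) and by 0.94 ± 0.12 in neuroectoderm (adjusted p = 0.000297).

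SNORD78 read 6138, 10386 and 6743 RPKM in hESC, 6617, 660.0 and 2356 in neuroectoderm and 1297, 1550.3 and 1302 in mesendoderm. The neuroectoderm values reached from below mesendoderm into the hESC range. SNORD78 fell by 2.45 ± 0.72 in mesendoderm (adjusted p = 0.0266), and leaving out any 1 of the 6 hESC and mesendoderm libraries ended the call (adjusted p = 0.0541 to 0.0811). SNORD51 read 683, 1476 and 837 RPKM in hESC, 1716, 249.9 and 695 in neuroectoderm and 212, 275 and 244 in mesendoderm. It fell by 1.96 ± 0.61 in mesendoderm (adjusted p = 0.0351). SNORD104 read 9933, 14512 and 13088 RPKM in hESC, 15007, 5606 and 8704 in neuroectoderm and 4958, 4661 and 4556 in mesendoderm. It fell by 1.39 ± 0.45 in mesendoderm (adjusted p = 0.0408). In both, mesendoderm lay wholly below hESC and neuroectoderm overlapped with hESC. Leaving out any 1 of the 6 hESC and mesendoderm libraries ended the calls for SNORD51 and SNORD104. So did leaving out neuroectoderm 3, which enters through the shared spread. The adjusted p was then 0.0527 to 0.113 for SNORD51 and 0.0574 to 0.125 for SNORD104. Dropping the filter on low values also ended the call for SNORD104 (adjusted p = 0.186). In neuroectoderm no listed 28S guide was called by limma (1 higher and 1 lower at an unadjusted p under 0.05).

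SNORD111, the 28S guide that rose, read 61.3, 97.0 and 77.1 RPKM in hESC, 150.5, 74.5 and 92.6 in neuroectoderm and 127, 149 and 133 in mesendoderm. Mesendoderm lay wholly above hESC, and SNORD111 rose by 0.81 ± 0.27 there (adjusted p = 0.043). The call was lost without hESC 1, hESC 3, neuroectoderm 3 or any mesendoderm library (adjusted p = 0.0613 to 0.141). SNORD111B, in another intron of the same host, read 332, 1172 and 760.5 RPKM in hESC, 1136, 259 and 639 in neuroectoderm and 476, 323 and 459.7 in mesendoderm. Its groups overlapped, with a mesendoderm difference of −0.69 ± 0.59 (adjusted p = 0.406). SNORD32A, which shares its stretch with SNORD51, read 3814, 3839 and 4586 RPKM in hESC, 4107, 2496 and 3201 in neuroectoderm and 1954, 4470.2 and 5429 in mesendoderm. It overlapped between all groups, with a mesendoderm difference of −0.17 ± 0.43 (adjusted p = 0.801). Whether the 2 members of such a pair differ in response was not tested.

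Among the 30 listed guides of 18S rRNA, SNORD93 fell in neuroectoderm, and in mesendoderm SNORD27 fell while SNORD62A and SNORD62B rose. Of all tested genes 22.3% fell in neuroectoderm, and 18.1% fell and 17% rose in mesendoderm. Mesendoderm lay wholly below hESC for 15 of the guides, beside 28.7% of all tested genes, with a median difference of −0.61. SNORD93 read 119, 333 and 107 RPKM in hESC, 82.6, 19.8 and 56.5 in neuroectoderm and 67.5, 64.4 and 80.7 in mesendoderm. Neuroectoderm lay wholly below hESC, and SNORD93 fell by 1.81 ± 0.55 there (adjusted p = 0.0253), a call that was lost without hESC 2 or neuroectoderm 2 (adjusted p = 0.0634 to 0.0751). SNORD27 read 15277, 30389 and 18279 RPKM in hESC, 40725, 9003 and 17163 in neuroectoderm and 5474, 6554 and 5653 in mesendoderm. Neuroectoderm spanned the hESC range, while mesendoderm lay below it. SNORD27 fell by 1.80 ± 0.61 in mesendoderm (adjusted p = 0.0486). Leaving out any hESC or mesendoderm library or neuroectoderm 3 ended the call (adjusted p = 0.0679 to 0.135). So did dropping the filter on low values (adjusted p = 0.209).

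The RNA listed as SNORD62A and SNORD62B read 4.87, 3.54 and 4.16 RPKM in hESC, 4.29, 6.17 and 3.95 in neuroectoderm and 6.50, 9.49 and 7.58 in mesendoderm. Mesendoderm lay wholly above the other groups, and the RNA rose by 0.77 ± 0.18 there (adjusted p = 0.00979), a call that was lost with equal sums over small RNA genes (adjusted p = 0.0509). Its level is low, since 3 reads on a transcript of 76 nt amount to 0.568 to 1.08 RPKM.

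SNORD22, a member linked to pre-rRNA processing, read 14713, 24223 and 12968 RPKM in hESC, 34280.3, 7074 and 12613 in neuroectoderm and 7623, 5368 and 6048 in mesendoderm. Mesendoderm lay wholly below hESC, but the difference of −1.41 ± 0.62 did not pass (adjusted p = 0.112). The 5.8S rRNA guides SNORD71 and SNORD96A were not called by limma in either lineage (0 at an unadjusted p under 0.05). SNORD23 and SNORD85 stand in none of the target lists. SNORD23 read 3388, 1007 and 1860.5 RPKM in hESC, 1021, 1386 and 1097 in neuroectoderm and 652, 714 and 707 in mesendoderm. Mesendoderm lay wholly below hESC, and SNORD23 fell by 1.42 ± 0.41 there (adjusted p = 0.0243). The call was lost without hESC 1, hESC 3 or any mesendoderm library (adjusted p = 0.0575 to 0.0736). Equal sums over small RNA genes also ended it (adjusted p = 0.22). SNORD85 read 199, 257 and 164 RPKM in hESC, 265, 119 and 272 in neuroectoderm and 69.7, 95.8 and 83.3 in mesendoderm. Mesendoderm lay wholly below both other groups, and SNORD85 fell by 1.30 ± 0.33 relative to hESC (adjusted p = 0.0142). The call was lost without hESC 2 or mesendoderm 1 (adjusted p = 0.0521 to 0.0559). Equal sums over small RNA genes also ended it (adjusted p = 0.11). SNORD96B, a near-copy of SNORD96A at 3.02 to 16.7 RPKM, fell by 1.12 ± 0.38 in mesendoderm (adjusted p = 0.0498). Its call held only without neuroectoderm 1 or mesendoderm 3 and was lost without any other 1 library (adjusted p = 0.0528 to 0.161).

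Several members serve as reference RNAs in small RNA assays. Of 9 such members tested (SNORD24, SNORD43, SNORD44, SNORD47, SNORD61, SNORD68, SNORD72, SNORD95 and SNORD96A), none was called against hESC in either lineage by limma. At an unadjusted p under 0.05 none was called in neuroectoderm and 3 were lower in mesendoderm, where the median difference was −0.61. SNORD44 read 3068, 7945 and 3186 RPKM in hESC, 7886, 1093 and 2278 in neuroectoderm and 1449.8, 1470.1 and 1295 in mesendoderm. SNORD95 read 4108, 6511 and 4789.8 RPKM in hESC, 9244, 2903 and 5614 in neuroectoderm and 2462, 2053 and 1989 in mesendoderm. In both, mesendoderm lay wholly below hESC and neuroectoderm 1 was the highest neuroectoderm library, with mesendoderm differences of −1.60 ± 0.68 and −1.22 ± 0.45 (adjusted p = 0.103 and 0.0646). Without neuroectoderm 1, SNORD44 (−1.60, adjusted p = 0.0171), SNORD95 (−1.22, adjusted p = 0.0237) and SNORD43 (−0.92, adjusted p = 0.0292) were called lower in mesendoderm. SNORD44 was then also called lower in neuroectoderm (−1.43, adjusted p = 0.0383). SNORD47 read 987, 1733 and 1141 RPKM in hESC, 1853, 669 and 1261 in neuroectoderm and 934, 1055 and 1181 in mesendoderm. Its groups overlapped, with differences of −0.11 ± 0.39 in neuroectoderm and −0.25 ± 0.39 in mesendoderm.

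In the imprinted region of chromosome 15, whose snoRNAs have no settled rRNA target, SNORD108 and SNORD109A fell. SNORD108 read 52.8, 54.0 and 64.4 RPKM in hESC, 16.4, 13.9 and 15.9 in neuroectoderm and 32.4, 34.7 and 37.1 in mesendoderm. The 3 groups were fully separated, with neuroectoderm lowest. SNORD108 fell by 1.82 ± 0.12 in neuroectoderm (adjusted p = 5.41e-06) and by 0.70 ± 0.12 in mesendoderm (adjusted p = 0.0024). With equal sums over small RNA genes the mesendoderm difference was −0.37 and the call was lost (adjusted p = 0.528). SNORD109A read 70.2, 81.4 and 75.5 RPKM in hESC, 36.4, 30.8 and 18.5 in neuroectoderm and 62.3, 50.8 and 49.0 in mesendoderm. It fell by 1.42 ± 0.23 in neuroectoderm (adjusted p = 0.00102), beside −0.48 ± 0.23 in mesendoderm (adjusted p = 0.137). Its groups too were fully separated, in the same order. SNORD64 (82.0 to 653 RPKM), SNORD107 (78.2 to 239.8 RPKM) and SNORD109B (0 to 6.98 RPKM) were not called against hESC.

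The size and sign of the differences went with transcript length. The 6 members that rose in neuroectoderm measure 104 to 237 nt and the 4 that fell 67 to 86 nt, beside a median of 76 nt over the tested members. Of 19 members of 100 nt or more, 6 rose and none fell in neuroectoderm, with a median difference of 0.65 (8 higher and 0 lower at an unadjusted p under 0.05). Of 79 members under 80 nt, none rose and 3 fell, with a median of −0.25 (0 higher and 7 lower at an unadjusted p under 0.05). Over all tested genes 21.9% were called higher and 22.3% lower in neuroectoderm. In mesendoderm the medians were 0.45 for the long members, −0.25 for the 42 of 80 to 99 nt and −0.74 for the short ones. Of the 79 short ones 43 lay wholly below hESC, beside 28.7% of all tested genes. Spearman's rho between length and difference was 0.46 in neuroectoderm and 0.52 in mesendoderm over the 140 members, which share libraries and often hosts.

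Single libraries also deviated from their group mean by length, at rho = −0.52 in neuroectoderm 1, 0.54 in neuroectoderm 2, −0.36 in mesendoderm 2 and −0.31 in hESC 2. In the other libraries rho lay between −0.07 and 0.27. The part of length-dependent recovery in the members' differences was not tested.

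**Figure D3:**
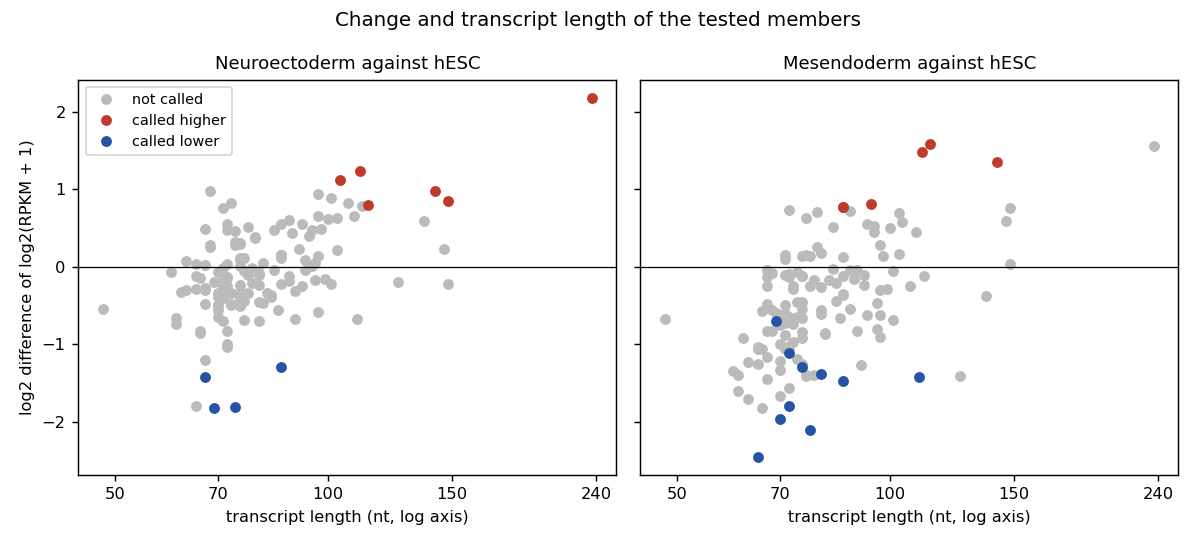
Log2 difference from hESC (y axis) against transcript length in nt (x axis, log scale) for the 140 tested members in neuroectoderm (left) and mesendoderm (right), coloured by whether they were called higher, lower or not. The rises called in neuroectoderm are all at 104 nt or more, and most members under 80 nt lie below 0 in mesendoderm.

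Leaving out neuroectoderm 1 raised the number of falls. Without it, the same 6 members rose in neuroectoderm and 17 fell, among them the 4 that fell with all libraries, while 51.3% of all tested genes were called. The members' median was then −0.59. The falls added were SNORD64, SNORD78, SNORD96B, SNORD74, SNORD42A, SNORD99, SNORD41, SNORD38A, SNORD37, SNORD44, SNORD49B, SNORD18B and SNORD4A, named to complete the count. In mesendoderm, where that library enters only through the shared spread, 9 rose and 29 fell, including the 6 and 10 called with all libraries, while 46.4% of all tested genes were called, 22.6% higher and 23.8% lower. Without neuroectoderm 2 instead, 12 members rose and 3 fell in neuroectoderm and the median was 0.39, while 39.6% of all tested genes were called. In mesendoderm 6 rose and 21 fell without that library, beside 35.2% of all tested genes called. The sign of the neuroectoderm median thus differed with the library left out, and it was also positive without hESC 2 (0.10). The mesendoderm median stayed between −0.28 and −0.63 without any 1 of the 9 libraries. Without hESC 2, neuroectoderm 1 and mesendoderm 1 together, the mesendoderm median was −0.17. There 17 members rose and 17 fell, beside 22.8% and 24.3% of all tested genes.

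Scaling also moved the neuroectoderm counts. With libraries rescaled to equal sums over genes other than small RNA, 3 members rose and 6 fell in neuroectoderm and 5 rose and 13 fell in mesendoderm, and the median of all genes was −0.13 in both. Of all tested genes, 14.1% were then higher and 24.2% lower in neuroectoderm, and 11.8% higher and 19.4% lower in mesendoderm. With equal sums over small RNA genes, 2 rose and 7 fell in neuroectoderm and 5 rose and 8 fell in mesendoderm, and the median of all genes in mesendoderm was 0.26. Of all tested genes, 7.36% were then higher and 10.6% lower in neuroectoderm, and 12% higher and 5.04% lower in mesendoderm. Relative to the median of all genes, the members' median in mesendoderm was −0.47 as deposited, −0.50 under the first scaling and −0.42 under the second. In neuroectoderm it was −0.10, −0.12 and −0.12.

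Members and the transcripts that carry them were compared over 128 pairs with 63 hosts. Spearman's rho between the difference of a member and that of its host was 0.19 in neuroectoderm and −0.02 in mesendoderm, and with 1 median per host 0.33 and −0.03. In the 37 pairs with ribosomal protein hosts (16 genes), the members' median in mesendoderm was −0.57 and that of the hosts 0.28. None of these hosts was called in either lineage by limma (0 at an unadjusted p under 0.05). In the 60 pairs with other protein-coding hosts (39 genes), 6 members rose and 1 fell in neuroectoderm, while 2 hosts rose and 14 fell, beside 21.9% of all tested genes higher and 22.3% lower. In mesendoderm 6 members rose and 5 fell, while 1 host rose and 10 fell, beside 17% higher and 18.1% lower.

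Hosts of members that rose did not all go the same way. SNX5, an endosomal sorting protein and host of SNORD17, fell by 0.48 ± 0.10 in neuroectoderm (adjusted p = 0.00378). EIF4A1, a translation initiation helicase and host of SNORD10, fell by 0.80 ± 0.21 there (adjusted p = 0.0145). RNF149, a ubiquitin ligase and host of SNORD89, rose by 0.72 ± 0.14 in mesendoderm (adjusted p = 0.00367) and differed by −0.06 ± 0.14 in neuroectoderm (adjusted p = 0.753).

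**Figure D4:**
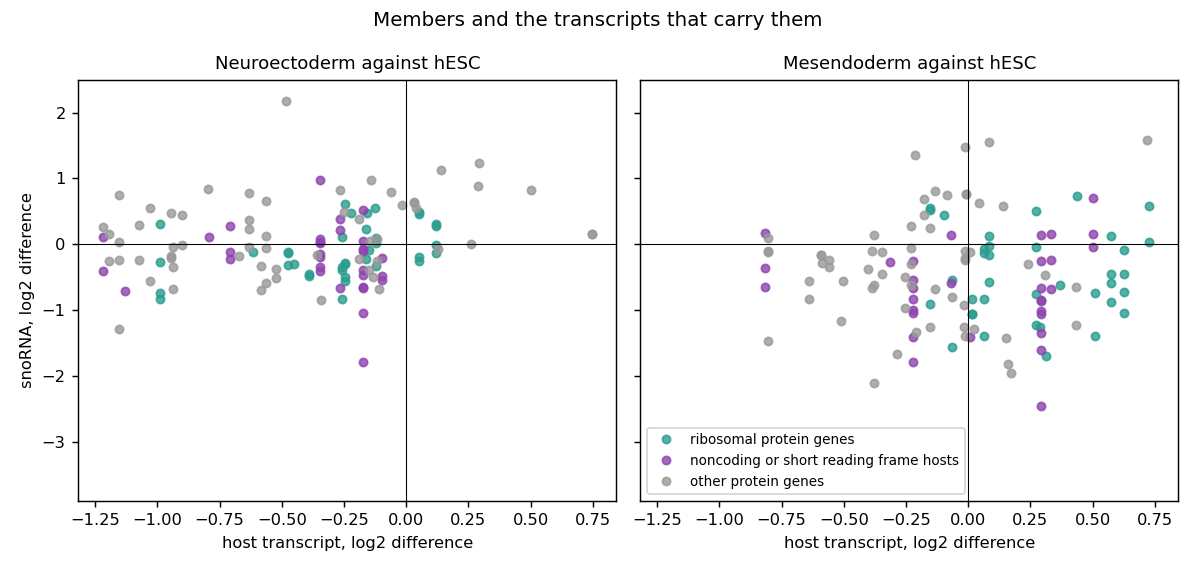
Log2 difference from hESC of each member (y axis) against that of its host transcript (x axis) for the 128 pairs, in neuroectoderm (left) and mesendoderm (right), coloured by kind of host. In mesendoderm the median of members in ribosomal protein hosts is −0.57 and that of these hosts is 0.28.

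GAS5 and SNHG1, non-coding transcripts, carry 10 and 8 members. The 10 members in GAS5 had a median difference of −0.94 in mesendoderm. Of these, 7 lay wholly below hESC, beside 28.7% of all tested genes, but SNORD78 alone was called, beside 18.1% of all tested genes called lower. GAS5 itself read 218, 139.5 and 203 RPKM in hESC, 93.2, 230.0 and 199 in neuroectoderm and 171, 274 and 243 in mesendoderm. Its groups overlapped, and it was lowest in neuroectoderm 1, the library in which SNORD44 and SNORD78 had their highest neuroectoderm values. The 8 members in SNHG1 had a median of −0.91 in mesendoderm, 6 lay wholly below hESC (beside the same 28.7%), and SNORD27 alone was called. SNHG1 read 58.0, 55.0 and 61.2 RPKM in hESC, 38.6, 49.9 and 48.5 in neuroectoderm and 48.8, 55.2 and 45.4 in mesendoderm. Its difference was −0.22 ± 0.14 in mesendoderm (adjusted p = 0.262). In neuroectoderm no member in either host was called by limma (0 in SNHG1, and 2 lower in GAS5, at an unadjusted p under 0.05). Without neuroectoderm 1, 3 members in GAS5 fell in neuroectoderm (SNORD78, SNORD74 and SNORD44). In mesendoderm 4 in GAS5 (these and SNORD75) and 3 in SNHG1 (SNORD27, SNORD22 and SNORD29) then fell. Of all tested genes 23.4% were lower in neuroectoderm and 23.8% in mesendoderm without that library.

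**Figure D5:**
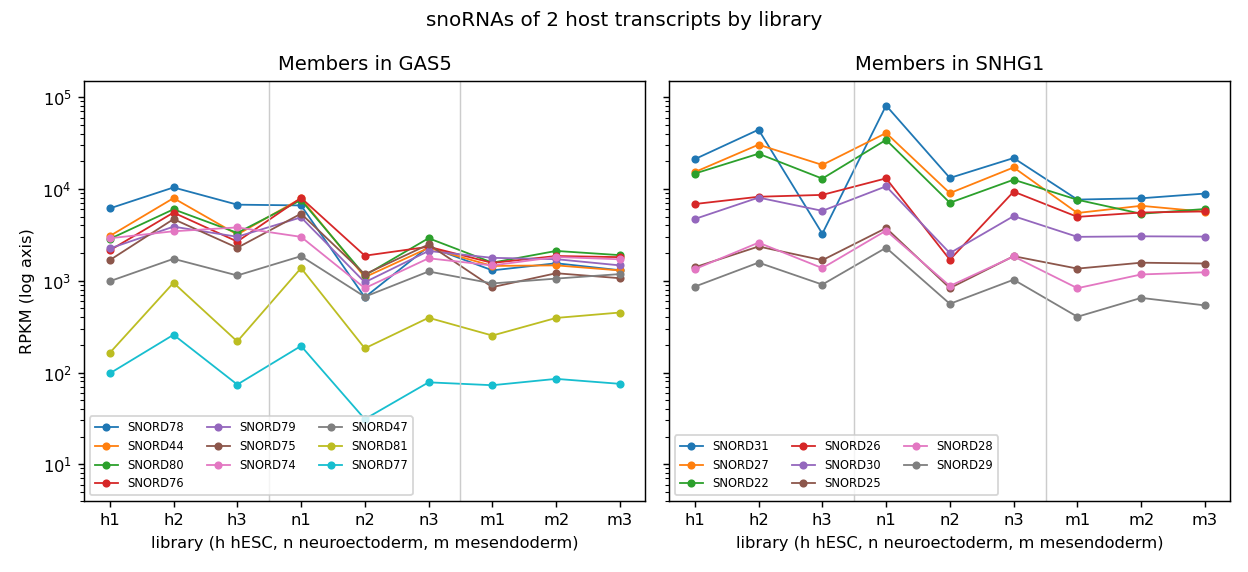
Level (y axis, RPKM, log scale) of the 10 members in GAS5 (left) and the 8 in SNHG1 (right) in each library, 1 line per member. Neuroectoderm 1 is high and neuroectoderm 2 low for most of them, and SNORD31 is far lower in hESC 3 (3255 RPKM) than in hESC 1 (21119 RPKM).

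Genes of the box C/D machinery were mostly lower or not called. Of the 4 core proteins, 2 fell in each lineage and none rose. Besides NOP56 these were NOP58, which fell by 0.63 ± 0.12 in neuroectoderm (adjusted p = 0.00249) and by 0.35 ± 0.12 in mesendoderm (adjusted p = 0.0499). FBL, the methyltransferase fibrillarin, read 181, 85.3 and 152 RPKM in hESC, 44.8, 149 and 129 in neuroectoderm and 110.2, 155 and 135 in mesendoderm. Its groups overlapped. Of 12 assembly factors, 5 fell in neuroectoderm and 3 in mesendoderm, and none rose. RUVBL1, a helicase of the assembly machinery, fell by 0.83 ± 0.15 in neuroectoderm (adjusted p = 0.00181). NOLC1, a nucleolar chaperone of snoRNA particles, fell by 0.74 ± 0.13 there and by 0.55 ± 0.13 in mesendoderm (adjusted p = 0.00202 and 0.0123).

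Of 19 factors of snoRNA end processing, 2 rose and 5 fell in neuroectoderm and 1 rose and 6 fell in mesendoderm. XRN1, a 5′ to 3′ exonuclease, rose by 0.79 ± 0.14 in neuroectoderm (adjusted p = 0.00167), the other rise being that of LARP7. EXOSC9, a subunit of the RNA exosome, fell by 0.65 ± 0.10 in neuroectoderm and by 0.37 ± 0.10 in mesendoderm (adjusted p = 0.00095 and 0.0215). In the processome that works on pre-rRNA with the U3 snoRNA, 20 of 26 proteins fell in neuroectoderm and 14 in mesendoderm, and none rose. The background of falls over all tested genes was 22.3% and 18.1%.

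Neuroectoderm against mesendoderm gave 6 members higher and 6 lower of 140, where 48.1% of all tested genes were called, 24% higher and 24.1% lower. Outside the imprinted region the counts were 6 and 4. The median difference was 0.39, beside −0.01 over all tested genes, and 18 members lay wholly above and 10 wholly below, beside 57.2% of all tested genes that did not overlap, 27.8% above and 29.4% below. Higher in neuroectoderm were SNORD69, SNORD98, SNORD85, SNORD95, SNORD94 and SNORD88B, and lower were SNORD108, SNORD109A, SNORD19, SNORD89, SNORD62A and SNORD62B. Without neuroectoderm 1, 4 members were higher and 8 lower and the median was −0.07, while 28.2% of all tested genes were higher and 23.7% lower. Without neuroectoderm 2, 43 were higher and 5 lower and the median was 0.84, while 22.4% of all tested genes were higher and 24.2% lower. With the replicate number as a block, 4 members were higher and 6 lower, beside 21.4% and 21.8% of all tested genes. The calls for SNORD95 (1.30, adjusted p = 0.081) and SNORD98 (1.65, adjusted p = 0.0859) were then lost. Equal sums over small RNA genes left 3 higher and 4 lower, with 6.7% of all tested genes higher and 18.8% lower.

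SNORD94, a guide for U6, read 129.8, 174 and 131 RPKM in hESC, 285, 168 and 211 in neuroectoderm and 129, 92.8 and 112 in mesendoderm. Neuroectoderm lay wholly above mesendoderm, by 0.96 ± 0.23 (adjusted p = 0.00824), a call that was lost with equal sums over small RNA genes (adjusted p = 0.255). SNORD98, an 18S guide, read 599.8, 1934 and 819.9 RPKM in hESC, 2611, 588 and 1721 in neuroectoderm and 394, 453 and 473 in mesendoderm. It was higher in neuroectoderm by 1.65 ± 0.58 (adjusted p = 0.0424), without overlap, but the call was lost without hESC 3, neuroectoderm 1, neuroectoderm 3 or any mesendoderm library (adjusted p = 0.0603 to 0.114). SNORD88B, a 28S guide, read 235, 151 and 274 RPKM in hESC, 344, 308 and 358 in neuroectoderm and 233, 147 and 150.5 in mesendoderm. It was higher in neuroectoderm by 0.96 ± 0.27 (adjusted p = 0.016), without overlap. The call was lost without neuroectoderm 3, mesendoderm 2 or mesendoderm 3 (adjusted p = 0.0504 to 0.066). For SNORD88B, equal sums over small RNA genes also ended the call (0.55, adjusted p = 0.389). Its near-copies SNORD88A and SNORD88C, which share 20 and 23 bases with it, differed by −0.14 ± 0.33 and 0.04 ± 0.40, and the authors' counting could split reads among the 3.

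SNORD19, an 18S guide, read 7.45, 6.59 and 8.59 RPKM in hESC, 4.21, 4.15 and 4.48 in neuroectoderm and 4.81, 10.4 and 11.6 in mesendoderm. It was lower in neuroectoderm by a log2 difference of −0.83 ± 0.26 (adjusted p = 0.0249), without overlap, and the call was lost without neuroectoderm 2, neuroectoderm 3, mesendoderm 2 or mesendoderm 3 (adjusted p = 0.0535 to 0.0922). The call for SNORD69 was lost without any 1 of the mesendoderm libraries (adjusted p = 0.0558 to 0.0576), those for SNORD62A and SNORD62B without neuroectoderm 3 or mesendoderm 2 (adjusted p = 0.0704 to 0.0709), and that for SNORD89 without mesendoderm 3 (adjusted p = 0.0693). The call for SNORD95 was lost without any 1 of 7 libraries, neuroectoderm 2 and hESC 2 being the exceptions (adjusted p = 0.0521 to 0.118). With equal sums over small RNA genes, the calls for SNORD85 (adjusted p = 0.0987), SNORD98 (adjusted p = 0.0611) and SNORD95 (adjusted p = 0.0507) were lost. So were those for SNORD62A and SNORD62B (adjusted p = 0.0597) and SNORD89 (adjusted p = 0.0586). SNORD108 and SNORD109A were the members whose call in this comparison held in all 21 alternative settings.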

How the data were processed

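The deposited values are RPKM per RefSeq transcript, made by the authors and rounded to 2 decimals, for 38759 transcripts in 9 libraries. Reads were aligned with tools of the TopHat family (TopHat and TopHat2 2.0.13) and Bowtie2 on hg19, per the submitters' processing notes. How transcripts were counted, with or without strand and with which treatment of multiple matches, is not given in the sources used here, so near-copies and overlapping transcripts are uncertain. Per the labels' protocols, small RNA was kept at extraction and rRNA was depleted. RPKM values are not counts, so no count test was run.

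Each of 21417 symbols stands for its transcript with the highest mean, and 14473 averaged at least 0.5 RPKM and entered the tests. These used limma 3.58.1 in R 4.3.3 (mean-variance trend, all 9 libraries, group as the only term) on log2(RPKM + 1), a scale that understates changes of low genes, with Benjamini-Hochberg adjustment. The script was tested on simulated data. Members to name were taken from the 12 most abundant and from those listed as U6, pre-rRNA processing, reference or imprinted members. Not all of these appear in the text. Per comparison, up to 8 rises and 8 falls were added. These came from called members with separate groups and a mean of 5 RPKM or more in the higher group. Further members are named for a shared host, target or stretch of sequence, or to complete a count. The target lists leave out 38 of the tested members, so statements on guides cover listed members only. Members and lists were chosen with earlier results of these data known. Read totals came from the steps of 1 read in low values: 94.5% to 96.6% of 212 to 248 values in each library were whole within 0.1 read. Floors of 3 reads cover counting error only. Deviations from the group means, over the tested genes, correlated between same-numbered libraries at 0.39, 0.25 and 0.23 for neuroectoderm with mesendoderm. Neuroectoderm 3 correlated at 0.24 with mesendoderm 2, so these values do not show a pairing by number. Same-numbered libraries of hESC and either lineage correlated at −0.74 to 0.40. Across numbers, hESC 2 correlated at 0.79 with neuroectoderm 1 and at 0.40 with mesendoderm 1. One of the alternatives left out these libraries together. No label names a shared culture or day. Alternatives were other pseudocounts, filters, scalings, sample weights, a replicate block and left-out libraries. SNORD3A, SNORD118, SNORD13 and SNORD48 were not analysed here.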

Additional observations from a re-analysis of the deposited data

Results flagged for a closer look

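The difference between neuroectoderm and mesendoderm was itself tested in the model of all 9 libraries, and 12 of the 140 members passed at an adjusted p under 0.05 (limma), beside 48.1% of all tested genes. Both lineages share their hESC controls, and this contrast does not use them other than through the spread. Higher in neuroectoderm, by log2 difference, were SNORD69 (1.76) and SNORD98 (1.65), guides of 28S and 18S rRNA, SNORD85 (1.31), SNORD95 (1.30), the U6 guide SNORD94 (0.96) and SNORD88B (0.96). Lower in neuroectoderm were SNORD108 (−1.12) and SNORD109A (−0.94) of the imprinted region, SNORD19 (−0.83), SNORD89 (−0.79) and SNORD62A with SNORD62B (−0.62 each). With the replicate number as a block, SNORD95 (adjusted p = 0.081) and SNORD98 (adjusted p = 0.0859) did not pass.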

How the results depend on the processing

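Results are given as members higher and lower. In neuroectoderm against hESC, 6 and 4 became 3 and 6 with equal sums over genes other than small RNA, 2 and 7 with equal sums over small RNA genes, 10 and 17 without hESC 2, neuroectoderm 1 and mesendoderm 1 together, and 16 and 18 with sample weights. Of all tested genes 44.2% were called, 58.6% without the 3 libraries and 66.4% with weights. In mesendoderm against hESC, 6 and 10 became 17 and 17 without those 3 libraries and 15 and 36 with sample weights, while the share of all tested genes went from 35.1% to 47.1% and 60.9%. In neuroectoderm against mesendoderm, 6 and 6 became 3 and 4 under equal sums over small RNA genes, 6 and 12 without the 3 libraries and 28 and 16 with sample weights, while that share went from 48.1% to 25.5%, 60.8% and 71%. The members outside the imprinted region gave 6 and 2 in neuroectoderm. Equal sums over genes other than small RNA were also combined with leaving out neuroectoderm 1, an alternative chosen after seeing the data. This gave 3 and 23 in neuroectoderm, beside 17.3% and 25.1% of all tested genes. In mesendoderm it gave 7 and 35, beside 14.8% and 25.3%. In all these cases the cause was not tested.

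Leaving out 1 library gave 3 to 12 higher and 3 to 17 lower in neuroectoderm against hESC, 5 to 9 and 3 to 29 in mesendoderm against hESC, and 2 to 43 and 3 to 8 in neuroectoderm against mesendoderm. The share of all tested genes called was then 34.7% to 51.3%, 24.9% to 46.4% and 38.2% to 51.9%, in that order. The mesendoderm against hESC, ratio of summed member levels, 0.636 as deposited, was 0.565 with equal sums over genes other than small RNA (with or without neuroectoderm 1), 0.604 with equal medians, 0.814 with equal sums over small RNA genes and 0.711 without the 3 libraries, and 0.585 to 0.718 without 1 library.

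With the replicate number as a block, neuroectoderm gave 3 higher and 3 lower, mesendoderm 5 and 4, and neuroectoderm against mesendoderm 4 and 6. Of all tested genes 39%, 29.2% and 43.2% were then called. The block ended the calls of SNORD95 and SNORD98 between the lineages and changed no other call there. In every comparison the libraries are known to share only a number. Calls kept in all 21 alternatives were those of SNORD108, SNORD109A, SNORD67 and SNORD86 in neuroectoderm, SNORD67, SNORD69, SNORD89 and SNORD97 in mesendoderm, and SNORD108 and SNORD109A between the lineages. Called members kept their direction under every alternative run. Depth limits the members with fewer than 30 reads in a library, 4 to 6 of 141.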
